A study of Homo sapiens with 6 samples.

Results

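Metallothioneins, their transcription factor MTF1 and the antisense RNA SLC39A12-AS1 were compared between U-87 MG cells exposed to electromagnetic fields and unexposed U-87 MG cells. The genes were taken by symbol: MT1, MT2 or MT3 followed by at most a letter, any symbol beginning with SLC30A or SLC39A, and MTF1. This gave 12 of the 14884 genes named in the array annotation, namely 8 MT1 genes, MT2A, MT3, MTF1 and SLC39A12-AS1, each with 1 probe set. The symbols starting with SLC39A came down to a noncoding RNA antisense to a zinc transporter gene, and 0 named probe sets began with SLC30A, so zinc transporters themselves were not analysed here and the results are those of metallothioneins and MTF1. U-87 MG is an established human glioblastoma cell line. Exposed cells (n = 3) were placed 24 h after seeding in a culture box within a Faraday chamber and kept for 54 h under RGFIELDS aimed at hsa-miRNA-381, a mutated alpha-kinase 2 gene, HSP70 and CHI3L1. Unexposed cells (n = 3) stood in a culture box outside the chamber, and both boxes received the same gas at the same temperature. Field and box therefore cannot be told apart in any difference below, and the description field of the exposed samples, unlike their titles, also contains the word control.

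Metallothioneins are small cysteine-rich proteins that hold zinc and copper ions in thiolate clusters and can also capture cadmium and reactive oxygen species. When free zinc rises in a cell, it binds the zinc fingers of MTF1, which then attaches to metal response elements in metallothionein promoters and switches these genes on. Zinc transporters of the SLC39A family bring zinc into the cytosol and those of the SLC30A family move it out or into vesicles. In the brain, astrocytes make MT1 and MT2 proteins, while MT3 is best known from neurons as growth inhibitory factor.

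The promoters that could be read are shown first, because the metal response element is the sequence through which zinc and MTF1 act on these genes. RefSeq promoter windows (build GRCh38.p14, from 250 bases before to 50 bases after the annotated start) were matched for 5 of the 12 genes: MT2A, MT1B, MT1H, MT1X and MTF1. The element's core was searched as TGCACNC and TGCGCNC on both strands, and overlapping matches were counted as 1 place. The 4 metallothionein windows lie on the plus strand of chromosome 16, at chr16:56608334-56608633 for MT2A, chr16:56651636-56651935 for MT1B, chr16:56669564-56669863 for MT1H and chr16:56682220-56682519 for MT1X. Capitals mark the core on either strand.
MT2A: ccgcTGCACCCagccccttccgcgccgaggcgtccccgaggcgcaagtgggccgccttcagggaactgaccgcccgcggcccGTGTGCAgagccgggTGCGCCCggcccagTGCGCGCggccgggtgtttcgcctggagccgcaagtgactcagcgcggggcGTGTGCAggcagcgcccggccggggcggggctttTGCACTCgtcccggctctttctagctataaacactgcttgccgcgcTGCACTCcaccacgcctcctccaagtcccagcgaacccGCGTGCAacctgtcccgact
MT1B: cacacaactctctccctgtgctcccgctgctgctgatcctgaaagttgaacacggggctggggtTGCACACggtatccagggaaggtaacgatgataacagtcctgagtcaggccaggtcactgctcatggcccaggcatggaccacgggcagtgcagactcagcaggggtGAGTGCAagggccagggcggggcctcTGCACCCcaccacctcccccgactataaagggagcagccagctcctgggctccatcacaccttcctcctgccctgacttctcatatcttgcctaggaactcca
MT1H: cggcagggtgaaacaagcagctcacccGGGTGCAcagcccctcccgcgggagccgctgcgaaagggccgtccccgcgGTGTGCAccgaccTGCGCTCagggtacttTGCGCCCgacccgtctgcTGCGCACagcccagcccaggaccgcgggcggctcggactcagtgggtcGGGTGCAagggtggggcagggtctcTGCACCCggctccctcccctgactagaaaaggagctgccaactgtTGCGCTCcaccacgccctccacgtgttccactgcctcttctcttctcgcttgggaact
MT1X: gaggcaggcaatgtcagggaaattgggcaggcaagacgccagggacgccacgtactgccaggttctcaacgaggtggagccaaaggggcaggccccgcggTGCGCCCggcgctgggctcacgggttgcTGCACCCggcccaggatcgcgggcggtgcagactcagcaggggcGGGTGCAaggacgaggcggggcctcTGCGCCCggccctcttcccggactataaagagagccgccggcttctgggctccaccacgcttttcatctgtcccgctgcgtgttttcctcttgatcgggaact

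The core stood at 8 places in the MT2A window, at 8 in MT1H, at 4 in MT1X and at 3 in MT1B. Of all 35116 promoter windows of this length, 29.6% held at least 1 such place and 1.63% held 3 or more. A share of 0.339% held 4 or more and 0.0171% held 8 or more. The metallothionein windows consisted of G and C to 60.3% (MT1B) to 72% (MT2A), and these shares were not matched for base composition. TGCACNC alone was in 12.1% and TGCGCNC alone in 20.0% of windows. The place from -53 to -47 was occupied in all 3 MT1 windows and the one from -78 to -72 in MT1H and MT1X. The MTF1 window, on the minus strand of chromosome 1, held 0 places. A heat shock element core, GAANNTTC, was found in 0 of the 5 windows (6.77% of all windows), and the antioxidant element core TGACNNNGC occurred once each in MT2A, MT1B and MT1X (13.3% of all windows). Such matches describe letters and not occupied sites.

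**Figure D1:**
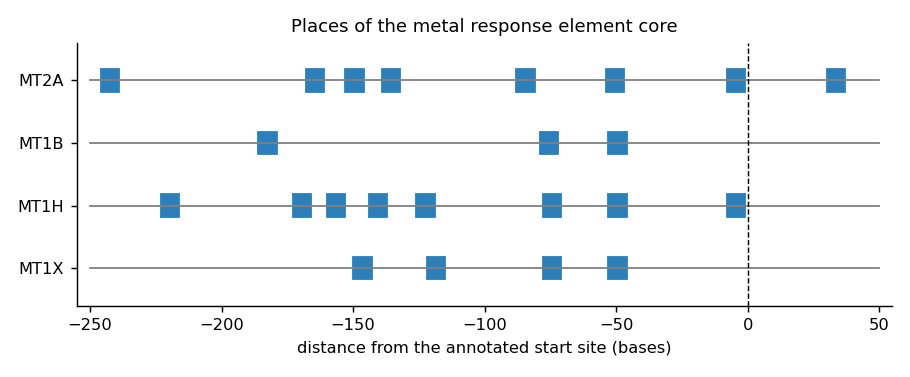
Places of the metal response element core (TGCACNC or TGCGCNC, either strand; blue boxes) in 4 metallothionein promoter windows, by distance in bases from the annotated start site (dashed line). MT2A and MT1H hold 8 places each, MT1X 4 and MT1B 3, and the place from -53 to -47 is shared by the 3 MT1 windows.

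Exposed cells had more MT1F transcript than unexposed cells, and several other MT1 genes had higher values that did not pass the test. MT1F was the 1 of 12 genes that rose, and 0 fell (also 0 lower at an unadjusted p under 0.05), at a limma adjusted p (Benjamini-Hochberg over all 14884 genes) under 0.05. Among all genes 1.4% rose and 1.67% fell by the same rule. The other 11 genes did not pass, with limma adjusted p from 0.0941 to 0.983. The median log2 change, exposed minus unexposed, was 0.38 over the 8 MT1 genes, 0.27 over the 10 metallothioneins and 0.21 over all 12, beside 0.0029 over all genes. All values are log2 levels summarised by the authors with RMA (robust multi-array average), so levels of different genes are not read as their relative RNA amounts. As whole cultures were measured, more RNA per cell and more cells with the RNA cannot be told apart.

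MT1F (probe set 16819252), a metallothionein made in many tissues, had levels of 9.74, 9.94 and 9.68 in exposed cells, against 9.41, 9.22 and 9.19 in unexposed cells. The lowest exposed value lay 0.27 above the highest unexposed value, a gap close to the exposed values' own range of 0.26. Exposed cells averaged 9.78 ± 0.14 and unexposed cells 9.28 ± 0.12 (SD, n = 3 each), which is a log2 change of 0.51 (SE 0.09, interval 0.30 to 0.72, 1.42-fold, limma adjusted p = 0.0336). The call rests on the arrays included and on the variance model. Leaving out exposed replicate 3 kept it (limma adjusted p = 0.0431), whereas it was 0.12 without exposed replicate 1, 0.105 without exposed replicate 2, 0.0523 without unexposed replicate 1, 0.11 without unexposed replicate 2 and 0.116 without unexposed replicate 3. It was 0.164 without a mean-variance trend and 0.165 without variance moderation.

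MT1M (16819224) had levels of 5.90, 6.06 and 5.97 in exposed cells, against 5.33, 5.42 and 5.77 in unexposed cells. All exposed values stood above the unexposed ones, of which replicate 3 was the highest. Exposed cells averaged 5.98 ± 0.08 and unexposed cells 5.51 ± 0.23 (SD, n = 3 each). The log2 change was 0.47 (SE 0.13, interval 0.17 to 0.77), and MT1M did not pass (limma adjusted p = 0.0941).

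MT1G (16826738) had levels of 5.07, 5.03 and 4.92 in exposed cells, against 4.07, 4.46 and 4.77 in unexposed cells. The exposed values lay close together and above a wide spread of unexposed values, whose range was 0.70. Its log2 change of 0.57 (SE 0.18, interval 0.16 to 0.98) was the largest estimate among the 12 genes and did not pass (limma adjusted p = 0.133). Without unexposed replicate 1 the change was 0.39, without unexposed replicate 3 it was 0.74, and without any other single array it was 0.54 to 0.61.

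MT1E (16819217) had levels of 7.08, 7.08 and 6.92 in exposed cells, against 6.85, 6.57 and 6.78 in unexposed cells, again without overlap. Its log2 change was 0.29 (SE 0.10, interval 0.07 to 0.52, limma adjusted p = 0.153). MT1L (16819213), annotated in RefSeq as a transcribed pseudogene, had levels of 8.67, 8.65 and 8.69 in exposed cells, against 8.47, 8.58 and 8.47 in unexposed cells. The MT1L groups did not overlap either, and its log2 change was 0.17 (SE 0.06, interval 0.03 to 0.31, limma adjusted p = 0.171).

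MT1H (16819257) and MT1B (16819247) lay below the array medians of 3.96 to 3.99 on every array, where log2 values are least certain. MT1H had levels of 2.78, 3.09 and 2.63 in exposed cells, against 2.70, 2.23 and 2.07 in unexposed cells. The groups overlapped through unexposed replicate 1, and the log2 change of 0.51 (SE 0.21) did not pass (limma adjusted p = 0.245). MT1B had levels of 2.61, 2.74 and 2.33 in exposed cells, against 2.41, 2.06 and 2.48 in unexposed cells. These values overlapped too, and the change of 0.24 had an interval of -0.17 to 0.65.

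MT1X (16819264), which like MT1F is a bright probe set, had levels of 10.7, 10.7 and 10.9 in exposed cells, against 10.9, 10.7 and 10.8 in unexposed cells. The groups covered the same range, and the change of -0.02 had an interval of -0.19 to 0.15. MT2A (16819207), the only MT2 gene measured and a main metallothionein of most cells, had levels of 10.6, 10.4 and 10.5 in exposed cells, against 10.5, 10.4 and 10.5 in unexposed cells. These values overlapped, and the log2 change of 0.05 had bounds of -0.09 and 0.18 (limma adjusted p = 0.742). MT3 (16819202), the neuronal form, had levels of 5.37, 5.52 and 5.26 in exposed cells, against 5.37, 5.39 and 5.40 in unexposed cells. The exposed values of MT3 spanned 0.26 and the unexposed values 0.03, around nearly the same mean, and the 95% interval of its change (-0.01) ran from -0.24 to 0.23.

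**Figure D2:**
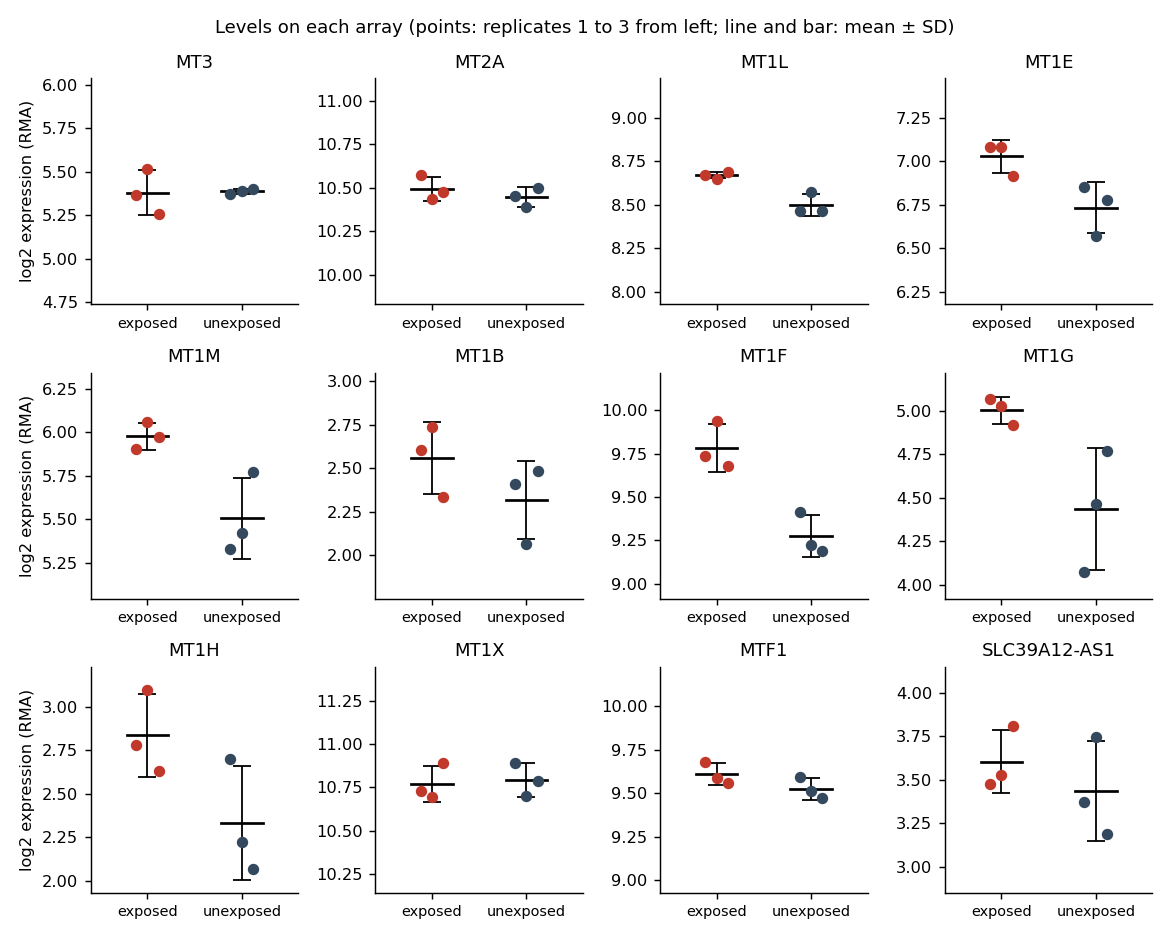
Log2 expression of each of the 12 genes on every array, exposed left and unexposed right, with points for replicates 1 to 3, a line for the mean and bars for the SD; every panel spans the same height on the log2 axis. Exposed points sit above all unexposed points for MT1L, MT1E, MT1M, MT1F and MT1G, and the groups overlap for the other 7 genes.

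In all, 5 of the 12 genes (MT1F, MT1M, MT1G, MT1E and MT1L) had 3 exposed values above all 3 unexposed values, an arrangement found in 13.2% of all genes. The opposite arrangement occurred in 0 of the 12 and in 13.8% of all genes. At an unadjusted p under 0.05, those 5 and MT1H were higher (6 of 12), where 8.71% of all genes were. Averaged over the 8 MT1 genes, the log2 level was 6.57, 6.66 and 6.50 in exposed cells, against 6.27, 6.15 and 6.29 in unexposed cells. Exposed replicate 2 held the highest exposed value for 6 of the 10 metallothioneins and exposed replicate 3 the lowest for 6. The genes are close copies of each other, so a probe set may also read its relatives and the members are not independent measurements.

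MTF1 (16685489), the zinc sensor that drives the family, had levels of 9.68, 9.59 and 9.56 in exposed cells, against 9.60, 9.51 and 9.47 in unexposed cells. The groups overlapped, and the log2 change of 0.08 (SE 0.06) had an interval of -0.06 to 0.22 (limma adjusted p = 0.536). Its transcript level does not report the zinc-dependent activity of the protein. SLC39A12-AS1 (16712312), which lies antisense to the gene of a zinc importer, was dim, at 3.48, 3.53 and 3.81 in exposed cells, against 3.37, 3.75 and 3.19 in unexposed cells. Unexposed replicate 2 stood within the exposed range, and the change of 0.17 had an interval of -0.26 to 0.60. This value does not report the transporter's own transcript.

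The metallothionein genes stand side by side on chromosome 16, where the RefSeq table lists 16 of them from MT4 to MT1X, 11 of these coding for protein. The 10 metallothioneins described here are 9 of the coding genes and the pseudogene MT1L, and MT4, which the symbols above do not take in, was measured as well. Along the chromosome the log2 changes were 0.11 for MT4, -0.01 for MT3, 0.05 for MT2A, 0.17 for MT1L, 0.29 for MT1E, 0.47 for MT1M, 0.24 for MT1B, 0.51 for MT1F, 0.57 for MT1G, 0.51 for MT1H and -0.02 for MT1X. The estimates above 0.1 thus run from MT1L to MT1H, with MT4 at 0.11 apart from them, an order seen after the values and not tested. Set beside the promoters printed above, MT2A and MT1H, with 8 core places each, had changes of 0.05 and 0.51. MT1X with 4 places and MT1B with 3 had changes of -0.02 and 0.24. Of these, MT1H and MT1B lay below the array medians on every array. No window was matched for MT1F, MT1M, MT1G, MT1E or MT1L, whose exposed values all stood above the unexposed ones. A relation between core places and changes was not tested.

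**Figure D3:**
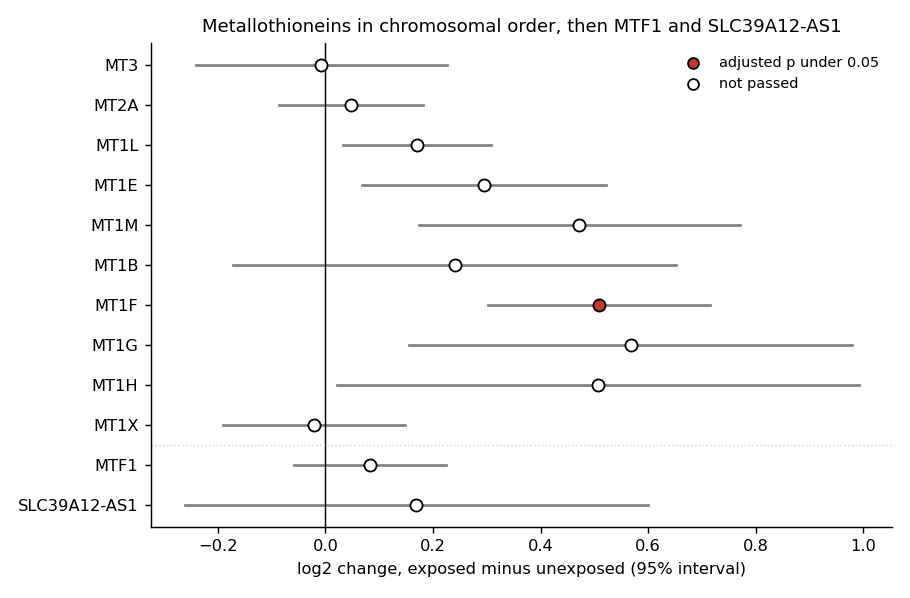
Log2 change, exposed minus unexposed, with its 95% interval for the 10 metallothioneins in chromosomal order from top to bottom, followed by MTF1 and SLC39A12-AS1. The filled point (MT1F, 0.51) passed an adjusted p of 0.05; MT3, MT2A and MT1X lie between -0.02 and 0.05, and MT4, which precedes MT3 on the chromosome, is not drawn.

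To set the members' changes side by side, differences between their probe sets were taken within each array for all 45 pairs of metallothioneins. MT1F minus MT1X was -0.99, -0.76 and -1.21 in exposed cells, against -1.48, -1.47 and -1.60 in unexposed cells. The groups did not overlap, and the difference between exposed and unexposed was 0.53. In the same way MT1F minus MT2A differed by 0.46 and MT1G minus MT1X by 0.59 between exposed and unexposed cells, both without overlap. Groups did not overlap for 14 of the 45 pairs, which share genes. Among all single genes 27% did not overlap in either direction, and the share over other gene pairs was not computed. Per gene, 5 of 9 pairs did not overlap for MT3, 4 each for MT1F, MT1X and MT2A, 3 each for MT1E, MT1G and MT1M, 1 each for MT1H and MT1L, and 0 for MT1B. By contrast MT1F minus MT1M was 3.83, 3.88 and 3.70 in exposed cells, against 4.08, 3.80 and 3.42 in unexposed cells, which overlap. These pairs are a description: an exact permutation test of 3 against 3 arrays cannot give a two-sided p below 0.1 and so could not decide whether the members changed unequally.

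**Figure D4:**
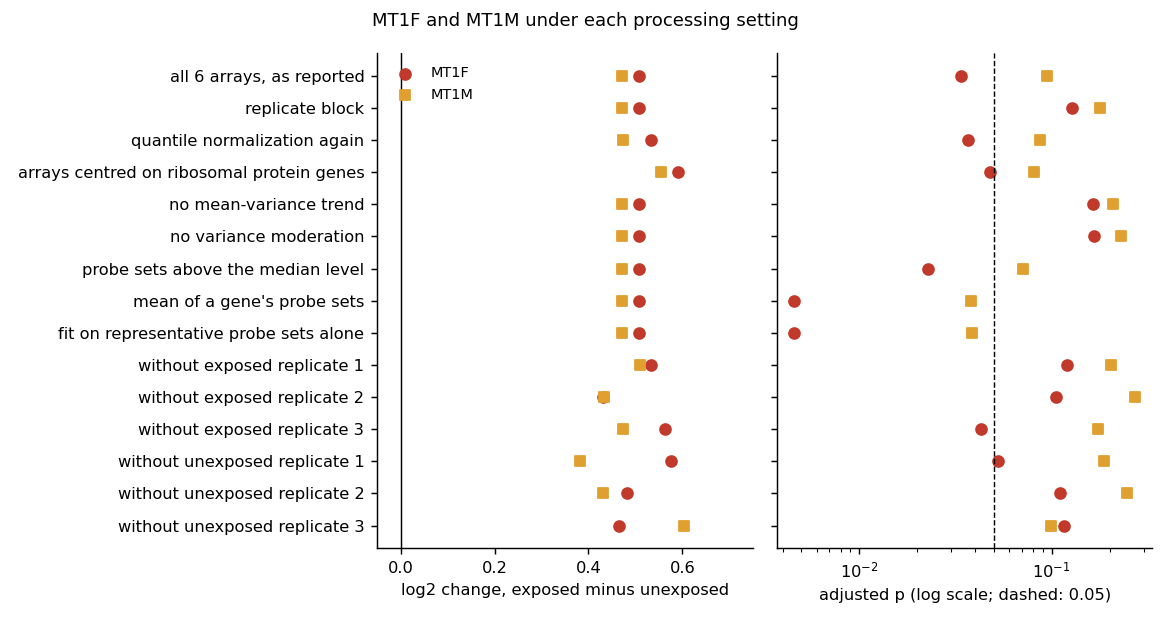
Log2 change, exposed minus unexposed (left), and adjusted p on a log axis (right; dashed line at 0.05) of MT1F (circles) and MT1M (squares), as reported and under 14 other processing settings. The MT1F change stays between 0.43 and 0.59, while its adjusted p passes in 6 of the 14 settings; MT1M passes in 2.

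Genes around the metallothionein system were taken from fixed lists. Of 22 genes of zinc, copper and iron handling outside the symbols above, 10 were measured, that is, had a named probe set. Of these, 0 rose and 0 fell, and the median log2 change was 0.01. At an unadjusted p under 0.05 there was 1, where 18.9% of all genes were. The copper chaperones COX17, which serves cytochrome oxidase, and ATOX1, which serves the secretory pathway, had changes of 0.16 (limma adjusted p = 0.522) and -0.14 (0.439). COMMD1, a regulator of copper export, was at 0.25 (limma adjusted p = 0.567) and MTF2, named for the same promoter element but known as a Polycomb protein, at -0.38 (0.202). MT4, a metallothionein known from stratified epithelia of mice and named here as a relative of the members after its values were seen, was at 0.11 with levels of 5.88, 5.67 and 5.98 in exposed cells, against 5.45, 5.90 and 5.86 in unexposed cells.

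The NRF2 pathway responds to oxidants and, like metallothioneins, to cadmium. Among 9 measured of its 14 listed genes, 1 rose, 0 fell and 8 did not pass, with a median of -0.03. Among all genes 1.4% rose and 1.67% fell. The gene that rose was HMOX1, the inducible heme oxygenase. It had levels of 10.0, 10.2 and 9.84 in exposed cells, against 9.36, 9.28 and 9.31 in unexposed cells. The exposed values lay at least 0.47 above the unexposed ones, and the log2 change was 0.70 (SE 0.09, 1.62-fold, limma adjusted p = 0.0287). The call was kept without exposed replicate 3 and lost without any other single array (limma adjusted p from 0.0523 to 0.12). It was also lost with the replicate number as a block (limma adjusted p = 0.127), without a mean-variance trend (0.159) and without variance moderation (0.134). Of that list, 3 genes were lower at an unadjusted p under 0.05, as were 10.2% of all genes. They were OSGIN1 at -0.58 (limma adjusted p = 0.0525), SRXN1 at -0.37 (0.0559) and TXNRD1 at -0.26 (0.179). Each had all exposed values below the unexposed ones, as had 13.8% of all genes, and none passed. In the same list 3 genes, HMOX1 and NFE2L2 among them, had all exposed values above the unexposed ones, as had 13.2% of all genes. NFE2L2, which encodes NRF2, was at 0.12 (SE 0.06, limma adjusted p = 0.397). OSGIN1, SRXN1, TXNRD1 and NFE2L2 were named after their values were seen.

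Glucocorticoids and low oxygen are further known inducers of metallothioneins. Of the glucocorticoid receptor and 11 genes it induces, 9 were measured, and the receptor itself was not. Of the 9 genes, 0 rose and 0 fell (3 at an unadjusted p under 0.05, beside the same 18.9% of all genes), with a median of 0.01. DUSP1, a phosphatase of MAP kinases, was at 0.24 (limma adjusted p = 0.116), the glutamine synthetase GLUL at 0.26 (0.221), the clock gene PER1 at -0.30 (0.106) and the caveolar protein CAVIN2 at -0.08 (0.811). Of 12 hypoxia-induced genes 8 were measured, 0 rose and 0 fell (2 at an unadjusted p under 0.05, both higher, as were 8.71% of all genes), with a median of 0.07. NDRG1, a stress-response gene, was at 0.43 (limma adjusted p = 0.0732) and ANKRD37 at 0.40 (0.111). The lactate dehydrogenase LDHA was at -0.09 (0.607) and the histone demethylase KDM3A at -0.11 (0.541).

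Array medians lay between 3.96 and 3.99, and correlations over all probe sets were 0.987 to 0.988 among exposed, 0.985 to 0.986 among unexposed and 0.982 to 0.987 between arrays of different groups. Markers of several cell types were set against the array medians. This does not tell cell types apart, as 2 of 3 measured epithelial and all 3 measured neuronal markers stood above the medians. Of 6 mesenchymal glioma markers, 5 were measured and all of these (VIM, CD44, FN1, CHI3L1 and THY1) stood above the array medians. SOX9 and NES also stood above them, as did GFAP (5.21 in exposed cells, 4.86 in unexposed cells) and OLIG2 (4.42 in exposed cells, 4.71 in unexposed cells), whereas S100B (3.26 in exposed cells, 3.68 in unexposed cells) and SOX2 (3.62 in exposed cells, 3.57 in unexposed cells) stood below them. None of these 6 glial and progenitor genes passed by limma, while GFAP (higher) and S100B (lower) had an unadjusted p under 0.05. Endothelial markers (2 of 4 measured) were all below the array medians. Neuronal markers (3 of 4 measured) had a summed level (log2 of the summed linear values) of 7.23 to 7.39 in exposed and 6.81 to 6.91 in unexposed cells. Of these, SYP and STMN2 overlapped between the groups, with changes of 0.04 and 0.15, and MAP2 rose by 0.91 (limma adjusted p = 0.0287). The limma adjusted p of MAP2 was 0.0844 to 0.12 without exposed replicate 1 or 2 or unexposed replicate 2 or 3. It was 0.127 with the replicate number as a block, 0.159 without a mean-variance trend and 0.132 without variance moderation. The summed mesenchymal level was 12.6 in each exposed and 12.7 to 12.8 in unexposed cells. FN1, the brightest of the 5 measured mesenchymal markers (11.9 in exposed cells, 12.1 in unexposed cells), weighed most in that sum. It was lower at an unadjusted p under 0.05 and did not pass (limma adjusted p = 0.148). VIM and CD44 also had lower means in exposed cells, and CHI3L1 and THY1 higher ones. Epithelial markers (3 of 4 measured) were at 5.67 to 5.78 in exposed and 5.58 to 5.75 in unexposed cells. Of the immune markers 2 of 6 were measured, with CD14 below the array medians and CD68, a lysosomal protein, at 12.3 in exposed and 12.2 in unexposed cells. The part of these markers in the metallothionein values was not tested.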

How the data were processed

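Total RNA of 3 exposed and 3 unexposed cultures was labelled with biotin and hybridised to 1-colour Affymetrix arrays. The deposited table holds 1 log2 value per probe set and array, made by the authors with RMA per the submitters' processing notes, where Affymetrix Expression Console 3.0 and also Transcriptome Analysis Console 3.0 are named. What else was set is not given in the sources used here. Detection calls are not part of the table. The number of arrays limits the precision.

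Of 53617 probe sets, 16098 had 1 gene symbol in the platform annotation, 0 had several and 37519 were unnamed here. Each of the 14884 genes was represented by its probe set with the highest mean over 6 arrays. limma 3.58.1 (R 4.3.3; lmFit, eBayes with trend = TRUE, two-sided) was fitted on all probe sets, without covariates or filter, and p-values were adjusted by Benjamini-Hochberg over the representative probe sets. Intervals are 95% intervals from that fit. Labels call the cultures independent biological replicates. The procedure was tested on simulated data with independent normal noise for each probe set. Such data hold no effects shared by the probe sets of an array, so the simulation does not cover them. The members and lists were chosen with earlier results of these data known. Genes named outside the members were those past the threshold in each list (at most 3 in each direction). Where there was none, they were the 2 with the smallest p in each direction. Exceptions were markers, MT4, NFE2L2, OSGIN1, SRXN1 and TXNRD1. All 12 gene IDs stand in the RefSeq gene table of GRCh38.p14, which was used for names, gene types and order. Figures were drawn with matplotlib 3.10.9. Alternatives were the replicate number as a block, quantile normalization, centring on ribosomal protein genes, other variance models, a filter on dim probe sets, averaged probe sets, a fit on representative probe sets and leaving out each array.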

Additional observations from a re-analysis of the deposited data

How the results depend on the processing

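MT1F was positive in all 14 alternatives, with a log2 change of 0.43 to 0.59, but passed in 6 of them (adjusted p 0.00457 to 0.165). The number of members that rose was 1 as reported, 0 without a trend, without moderation and with the replicate number as a block, and 2 (MT1F and MT1M) with averaged probe sets or with representatives fitted alone. It was 0 to 1 with single arrays left out, and 0 members fell in any setting. The number of genes past the threshold, 456 as reported, was 0 without a trend (2220 at an unadjusted p under 0.05), 0 with the replicate block (2286), 4 without moderation, 753 above the median level, 1173 with averaged probe sets and 1209 with representatives alone, and 0 to 325 with single arrays left out (2065 to 2287 at an unadjusted p under 0.05 where it was 0). MT1X was at 0.0114 with quantile normalization again, at 0.0621 when ribosomal protein genes were used for centring, and between -0.0797 and 0.0288 with single arrays left out. MT3 was at 0.0752 with that centring and between -0.0762 and 0.0537 with arrays left out, MT4 between -0.0356 and 0.192, and CAVIN2 at 0.000545 with the centring. The centring moved the median of all genes to 0.0858. Deviations of same-numbered exposed and unexposed arrays from their group means had correlations of -0.07 to -0.03. Each exposed array correlated best with an unexposed array of another number. With 3 arrays per group these correlations cannot settle whether cultures were paired. The cause of these shifts was not tested. Signal near background limits MT1B, MT1H and SLC39A12-AS1, which the filter on dim probe sets removes.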
